A study of Mus musculus with 2 samples.

Results

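Islet δ cells were taken here as the barcodes in which somatostatin (Sst) was the leading islet hormone other than insulin. A barcode marks 1 droplet, and its transcripts are counted as unique molecular identifiers (UMIs). The barcodes were selected on measured values: at least 500 detected genes, at most 20% of UMIs from mitochondrially encoded (mt-) genes, at least 2% of UMIs from Sst, more Sst than glucagon (Gcg), pancreatic polypeptide (Ppy) or peptide YY (Pyy), and less than 40% of UMIs from the insulin genes Ins1 and Ins2 together. By this rule 199 of 12846 deposited barcodes were δ barcodes, out of 9897 that passed the gene and mt- filters. There were 64 in the wild-type (WT) library and 135 in the high-fat diet (HFD) library.

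The study asked how diet-induced obesity changes islet cells by single-cell RNA sequencing of isolated islets. Each of the 2 groups was a single library of islet cells pooled from 4 male C57/B6 mice, all 16 weeks old. Feeding of HFD mice on a diet with 60% of its kcal as fat began when they were 6 weeks old and lasted 10 weeks, and the diet of the WT mice was not named in the labels. Dead cells were removed before droplet capture. With 1 library per group there is no replicate check, so no p-value is given, intervals cover counting error only, and diet, islet preparation and library cannot be told apart.

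δ cells are the somatostatin-secreting endocrine cells of the islet. Somatostatin acts on neighboring β and α cells through inhibitory G protein-coupled receptors and restrains the release of both insulin and glucagon. In the mouse the δ cell fate requires the homeodomain factor Hhex, and δ cells extend thin neurite-like processes and respond to ghrelin, to urocortin 3 from β cells, and to glucose.

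Expression of the Sst gene is induced by cyclic AMP through a response element just upstream of the transcription start. That element is shown here because Sst is the transcript that defines the cells. It lay in the minus-strand sequence chr16:23890874-23890903 (GRCm38.p6, RefSeq promoter window), printed 5′ to 3′ with the 8 bases of the element in capitals.
Sst upstream site: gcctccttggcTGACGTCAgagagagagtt
The element began 48 bases before the RefSeq start and was the only copy in the 250 bases upstream. The GENCODE model of Sst (chr16:23889573-23890958, minus strand) starts farther upstream, so in that annotation the same bases are exonic. The palindromic letters TGACGTCA, identical on both strands, were found in the upstream window of 1.77% of 27025 genes. Of 14 genes with higher levels in δ than in other endocrine barcodes, described below, 9 had a window in the table, and Sst was the only 1 of them with this element. The homeodomain core TAATTA, also its own reverse complement, was in 0 of those 9 windows and in 5.65% of all genes. These matches describe letters in a window and not factor binding.

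The 2 libraries differed in depth, which touches each value below. δ barcodes held a median of 8256.5 UMIs and 2603.5 genes in WT, and 3128 UMIs and 1272 genes in HFD. Summed UMIs were 751703 in WT and 615664 in HFD. Of the barcode sequences, 9 occurred in both libraries and none of these was a δ barcode. Barcodes were not removed as doublets, because the automatic Scrublet threshold marked only 4 WT and 2 HFD barcodes of all cell types. Removing the 121 WT and 641 HFD barcodes with the highest doublet scores would have removed 0 WT and 3 HFD δ barcodes.

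δ barcodes made up 3.10% of 2066 endocrine barcodes in WT (exact 95% binomial interval 2.39% to 3.94%) and 2.03% of 6656 in HFD (1.70% to 2.40%). Among δ, α and γ barcodes together the δ share was 39.0% of 164 in WT (31.5% to 46.9%) and 32.5% of 416 in HFD (28.0% to 37.2%). The intervals of the first pair overlapped only between 2.39% and 2.40%, and those of the second pair overlapped widely. α, γ and β barcodes were set by parallel rules on Gcg, Ppy and insulin. These shares moved with the depth limit used: with barcodes of at most 15000 UMIs the δ share of endocrine barcodes was 13.4% in WT and 3.03% in HFD. A share of barcodes is not a share of cells in the islet.

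The Sst share of UMIs ranged from 2.50% to 26.7% in WT with a median of 13.2%, and from 2.12% to 29.0% in HFD with a median of 14.2%. The rule used this share and its 2% limit bounds the lower ends, so the likeness of the ranges is no finding. Few barcodes lay near the Sst limit. Just inside, at 2% to 3%, were 3 WT and 4 HFD barcodes, and just outside, at 1% to 2% and meeting the other criteria, was 1 in each library.

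The insulin share split the δ barcodes. Ins1 and Ins2 together were below 10% of UMIs in 45 WT and 106 HFD barcodes and between 10% and 40% in 19 WT and 29 HFD barcodes. Between 5% and 10% there were 0 WT barcodes and 1 HFD barcode, so the lower and higher values formed separate clouds. The insulin limit itself cut through the upper cloud, with 11 WT and 14 HFD barcodes just inside at 35% to 40% and 9 WT and 22 HFD barcodes just outside at 40% to 45%. In all, 19 WT and 54 HFD barcodes with at least 2% Sst were left out because insulin reached 40% or more. With insulin under 40%, another 22 WT and 58 HFD barcodes with at least 2% Sst were left out because Gcg, Ppy or Pyy was not below Sst. The δ barcodes held 45.7% of all Sst UMIs of the WT library and 47.4% of those of the HFD library.

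**Figure D1:**
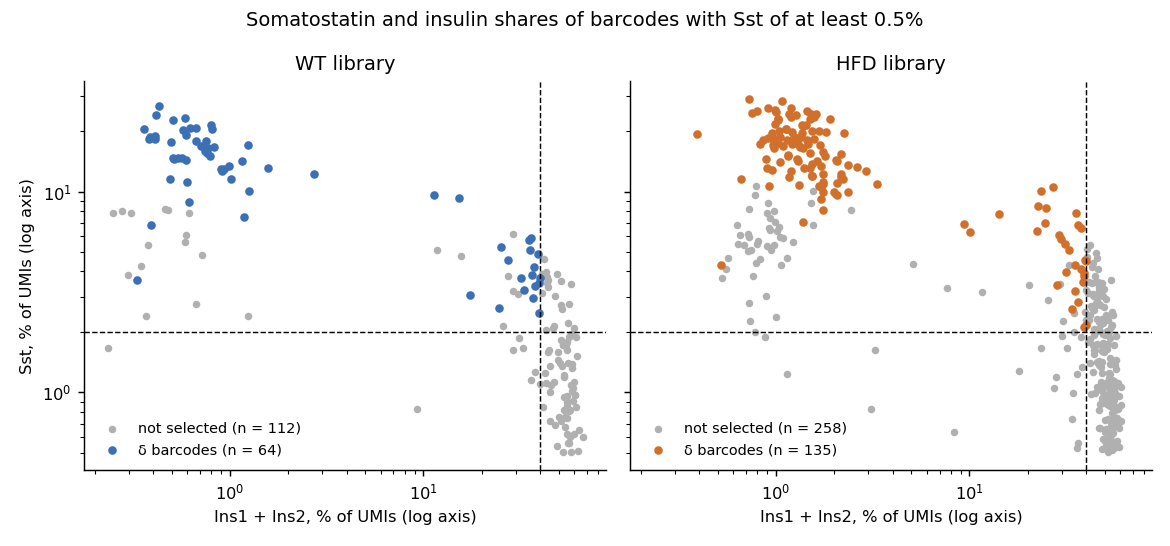
Share of UMIs from Sst (vertical, log axis) against the share from Ins1 and Ins2 (horizontal, log axis) for every barcode past the filters with at least 0.5% Sst, 1 panel per library, dashed lines at 2% Sst and 40% insulin, selected δ barcodes colored. In both panels the δ barcodes form a cloud at low insulin (45 WT, 106 HFD) and a smaller one next to the insulin limit (19 WT, 29 HFD).

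The insulin-high barcodes were deeper and carried β cell transcripts. Their median depth was 20914 UMIs in WT and 9514 in HFD, against 7258 and 2808 in the insulin-low barcodes. Median Sst was 3.84% in WT and 5.11% in HFD, against 15.9% and 17.0% at low insulin. Slc2a2, which encodes the GLUT2 glucose transporter of mouse β cells, stood at 102 CPM (the gene's share of all UMIs summed over a class, scaled per 1000000) in WT and 69.6 CPM in HFD in the insulin-high barcodes, and at 5.55 and 12.2 CPM in the insulin-low ones.

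The β cell genes Mafa, Nkx6-1, Ucn3 and G6pc2 showed the same split. Nkx6-1, a β cell homeodomain factor, had 65 WT and 25 HFD UMIs in the insulin-high barcodes against 1 and 5 in the more numerous insulin-low ones. Mafa had 23 and 21 UMIs against 5 and 0. Chga, the granule protein chromogranin A, was at 9968 CPM (WT) and 5037 CPM (HFD) at high insulin, and at 3119 and 3330 CPM at low insulin. Whether an insulin-high barcode was 1 cell or a δ and a β cell captured together was not tested. Of 29 such barcodes in HFD, 2 were among those with the highest doublet scores, and of 19 in WT, 0 were.

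A low level of insulin transcript was present in all cell types. The median insulin share was 0.801% in WT and 1.53% in HFD for all δ barcodes, 0.456% and 1.03% in endothelial barcodes, which do not make insulin, and 0.502% and 1.02% in α barcodes. The HFD value was the higher of the pair in each of the 3 types. Insulin in insulin-low δ barcodes had medians of 0.623% and 1.35%, near the level of cells that do not make it, and the Ins2 log2 ratio of HFD to WT in these barcodes was 1.25 (1.17 to 1.34).

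Most δ barcodes also held transcripts of the pancreatic polypeptide family. Ppy, the hormone of γ cells, was at least 1% of UMIs in 47 of 64 WT barcodes (73.4%) and 97 of 135 HFD barcodes (71.9%). Pyy, its close relative, reached 1% in 62 of 64 (96.9%) and 130 of 135 (96.3%). Both genes lie side by side on chromosome 11 (Ppy chr11:102099930-102101319, Pyy chr11:102106676-102107832, both on the minus strand, GRCm38).

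Median Ppy was 2.43% in WT and 1.81% in HFD δ barcodes, and ranged from 0.0301% to 10.3% in WT and from 0% to 11.9% in HFD. Median Pyy was 3.13% and 3.73%, with ranges of 0.561% to 10.5% and 0.461% to 13.8%. The libraries overlapped almost completely for both peptides. The rule kept Ppy and Pyy below Sst in every δ barcode, which caps these shares and ranges. Medians were 0 in β and endothelial barcodes of each library, so these levels exceeded what free transcript gave in cells that lack the peptides. In α barcodes, median Ppy was 0.146% in WT and 0.3605% in HFD and median Pyy was 1.40% and 2.33%.

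Gcg reached 1% of UMIs in 1 WT and 2 HFD δ barcodes, and its median was 0 in both. Iapp, which encodes amylin and is co-secreted with insulin in β cells, had a median of 2.81% in WT and 2.996% in HFD. In insulin-low barcodes these medians were 2.16% and 2.71%, against 0.102% and 0.236% in α barcodes and 0.0376% and 0.175% in endothelial barcodes. Amylin transcript in δ barcodes thus stood above the free level in the barcodes with little insulin as well.

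**Figure D2:**
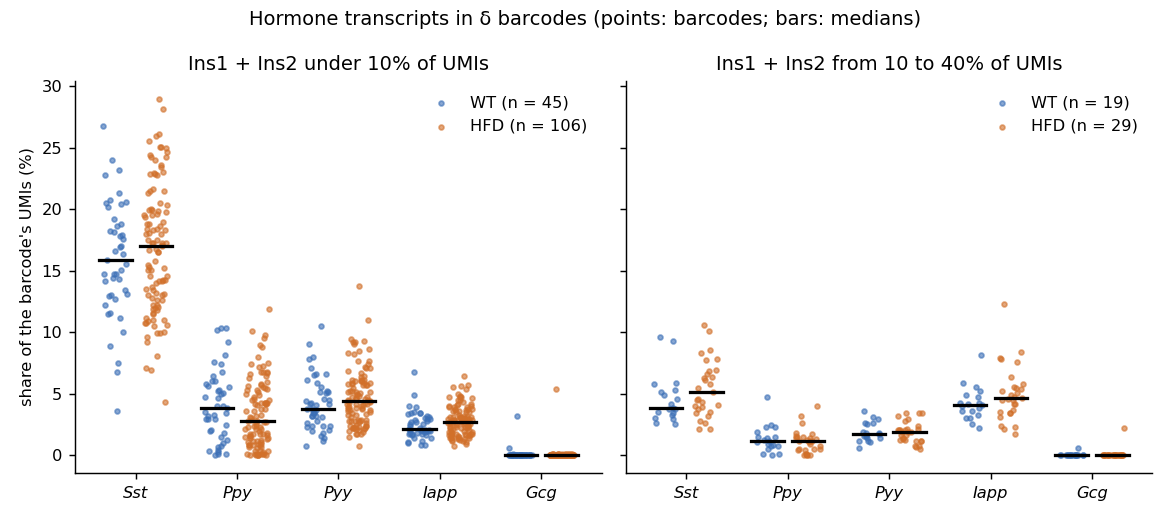
Share of each δ barcode's UMIs (vertical, percent) from 5 hormone genes, in barcodes with insulin under 10% (left) and from 10% to 40% (right), WT beside HFD, points for barcodes and bars for medians. Ppy and Pyy are present in nearly all insulin-low barcodes of both libraries, and Gcg is near 0.

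Vascular, stromal and T cell markers were near 0 in δ barcodes. The 6 endothelial markers summed to 5 UMIs in WT and 0 in HFD, and 0 barcodes in either library held 3 or more of them. The 6 T cell markers had 0 UMIs in both, and the 6 fibroblast markers 1 UMI in WT and 0 in HFD. The 6 B cell markers had 13 and 6 UMIs, nearly all from Cd79a.

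Duct and macrophage lists were not near 0, and in each a single gene held most of the UMIs. Duct markers, 4 of 6 detected in WT and 2 of 6 in HFD, summed to 158 and 162 CPM, of which keratin 7 (Krt7) made up 114 and 127 CPM and Spp1 37.2 and 35.7 CPM. The duct-defining genes Krt19 and Cftr had 0 UMIs, and Sox9 had 4 in WT and 0 in HFD. Macrophage markers, 4 and 2 of 6, summed to 102 and 119 CPM, of which C1qa made up 98.4 and 117 CPM, whereas Lyz2 and Adgre1 had 0 UMIs and C1qb 1 and 0. The same lists summed to 165 and 182 CPM (duct) and 81.5 and 100.3 CPM (macrophage) in α barcodes.

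Acinar enzyme transcripts, which come from the exocrine pancreas around the islet, had at least 1 UMI in 62 of 64 WT and 132 of 135 HFD δ barcodes. A single HFD barcode stood apart with 35.5% acinar-marker UMIs (10217 UMIs in all, 4.31% Sst, 0.519% insulin) and held 84.8% of the acinar-marker UMIs of HFD δ barcodes. Without it the 6 markers summed to 479 CPM (WT) and 1075 CPM (HFD). The same sum was 343 and 915 CPM in α, 131 and 365 CPM in β and 504 and 1201 CPM in endothelial barcodes, each without barcodes of at least 1% acinar markers. The higher HFD level was present in each of these cell types.

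Genes higher in δ than in other endocrine barcodes were listed by a criterion of size, a CPM at least 4 times that of α, γ and β barcodes in both libraries, among genes with at least 50 UMIs in the δ barcodes of each library. It was met by 6 of 1261 genes. These were Sst, whose place is set by the selection of the barcodes and is no finding, and Cd24a, Hhex, Nnat, Gap43 and Ly6h. The α and γ barcodes taken by the parallel rules still held Sst, at 17078 and 5950 CPM in WT, since those rules set no limit on Sst other than that another hormone leads.

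The list was then made again with insulin-low δ barcodes and with comparators chosen after seeing the data, which were α, γ and β barcodes with under 1% Sst and, for α and γ, under 10% insulin. Of 610 genes 13 met the criterion, Sst again among them by construction. They included 5 of the 6 above, Nnat being the exception. The δ side was then 45 WT and 105 HFD barcodes, without the acinar-rich barcode. The comparators were 46 and 162 α, 17 and 31 γ, and 1875 and 6187 β barcodes. A comparator with 0 UMIs was set to 3, so folds over it are lower bounds. Folds over a comparator with 1 or 2 UMIs use those counts and are imprecise. In the description of δ-enriched genes, transcription factors and receptors that follows, α, γ and β levels are those of these comparators. Over all β barcodes insulin took a median of 60.7% (WT) and 57.3% (HFD) of UMIs, which lowers the CPM of every other gene there. Folds over β barcodes are therefore larger than they would be without insulin, and small differences from β give no order.

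Hhex (chr19:37434810-37440731, plus strand), the δ lineage factor, was at 299 CPM (108 UMIs, WT) and 208 CPM (66 UMIs, HFD). It had 0 UMIs in α and γ comparators of both libraries and was at 0.740 and 0.454 CPM in β comparators. This is at least 12.0-fold above each of the 3 comparators. Over all α barcodes, the ones with Sst included, it had 37 UMIs in WT and 18 in HFD, and over all γ barcodes 5 and 11. Hhex transcript was also found in endothelial barcodes, at 58.1 CPM (WT) and 27.7 CPM (HFD).

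Ly6h (chr15:75551268-75567255, minus strand), a GPI-anchored protein of the Ly6 family known to bind nicotinic receptors, was at 324 CPM (WT) and 381 CPM (HFD), and had 0 UMIs in α and γ comparators except for 1 in HFD α. Gap43 (chr16:42248442-42340651, minus strand), the growth-associated protein of axon growth cones, was at 164 CPM in each library with 0 UMIs in the α and γ comparators of both libraries. Cd24a (chr10:43578284-43584265, plus strand), which encodes the surface glycoprotein CD24, was at 455 and 462 CPM, at least 26.7-fold above the α, γ and β comparators, but was higher still in endothelial barcodes, at 734 and 651 CPM. Over all α barcodes, without the limit on Sst, Ly6h had 40 WT and 53 HFD UMIs, Gap43 25 and 18, and Cd24a 55 and 66. The near absence of these 3 genes thus held for comparators with little Sst and not for the whole α class.

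Rbp4, the plasma retinol-binding protein (chr19:38116629-38125281, minus strand), was at 5329 CPM (WT) and 5830 CPM (HFD). Unlike the preceding genes it was shared with α barcodes, at 1131 and 1079 CPM, and γ barcodes, at 280 and 444 CPM, while β barcodes had 24.6 and 16.6 CPM. Arg1, the urea-cycle enzyme arginase 1 (chr10:24915221-24927484, minus strand), was likewise highest in δ, at 494 and 406 CPM, and next in α barcodes, at 103 and 77.1. It was at 3.73 and 5.77 CPM in γ, from 1 UMI in each library, and at 1.69 and 1.68 in β barcodes. These values give no order of γ and β. Rbp4 and Arg1 were therefore δ-enriched but not restricted to δ barcodes.

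Fam159b, a small transmembrane protein gene now called Shisal2b (chr13:104845283-104863893, minus strand), was at 882 CPM (WT) and 739 CPM (HFD), at least 21.6-fold above each comparator. Rab3b, a GTPase of secretory vesicles, was at 152 and 164 CPM, 9.41-fold or more above each. Sez6l, a neuronal transmembrane protein, was at 216 and 211 CPM and stood closest to β barcodes, at 47.6 and 35.7 CPM. Rgs9, a regulator of G protein signaling, was at 139 and 160 CPM with a smallest fold of 4.28, over WT α barcodes.

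The heat shock genes Hspb1 and Hspa1a also met the criterion. Hspb1 was at 341 CPM (WT) and 198 CPM (HFD), and Hspa1a at 582 and 324 CPM, both lower in the HFD library. In endothelial barcodes they were higher than in δ, at 1519 and 1350 CPM (Hspb1) and 2743 and 710 CPM (Hspa1a). Hspa1a has a near-identical copy, Hspa1b, so its reads are uncertain.

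**Figure D3:**
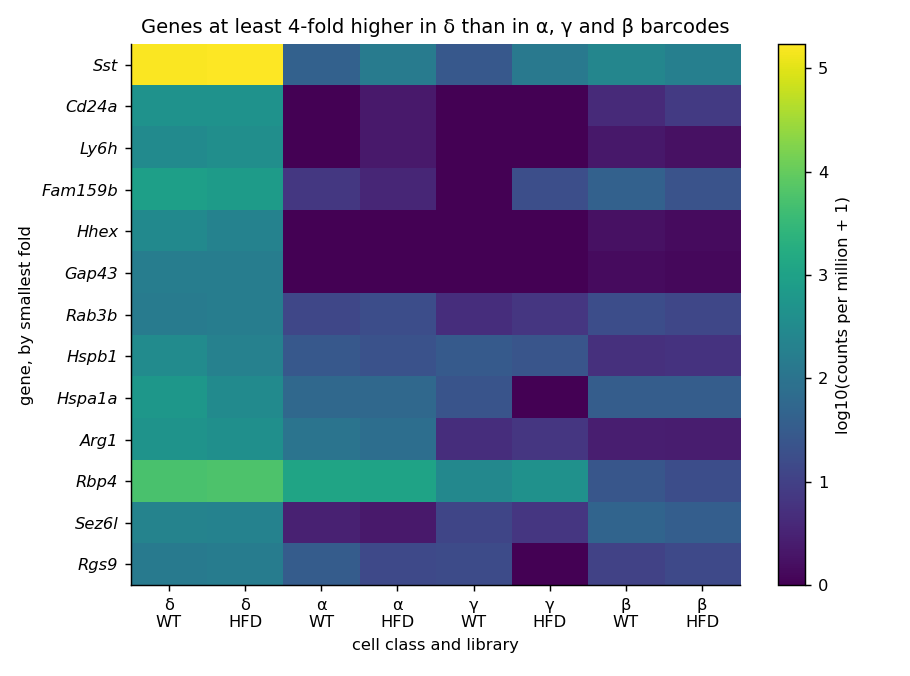
Heat map of log10(CPM + 1) for the 13 genes (rows, by smallest fold) in insulin-low δ barcodes and in α, γ and β comparators with little Sst of each library (columns). Hhex and Gap43 have 0 UMIs in all 4 α and γ columns, whereas Rbp4 is seen in α and γ as well.

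The pan-endocrine transcription factors were detected in δ barcodes. Isl1, a LIM-homeodomain factor of endocrine cells, was at 416 CPM (WT) and 302 CPM (HFD) in insulin-low δ barcodes, against 182 and 81.1 CPM in α and 71.6 and 63.4 CPM in β barcodes. Pdx1, the homeodomain factor of β and δ cells, was at 103 and 88.0 CPM in insulin-low δ barcodes, 72.8 and 52.1 in β, and 2.02 and 3.99 in α. Pdx1 was thus present in δ barcodes with few β cell transcripts. Because insulin filled most UMIs of β barcodes, these values give no order of δ and β for Pdx1.

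Irx2, a factor of the α lineage, had 3 WT and 2 HFD UMIs over all δ barcodes, and 83.0 and 77.1 CPM in α comparator barcodes. Neurog3, the endocrine progenitor factor, had 29 UMIs in WT and 11 in HFD over all δ barcodes, insulin-high ones included, or 38.6 and 17.9 CPM. It had 0 UMIs in α and γ comparators and was at 0.386 and 0.291 CPM in β barcodes.

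Receptors of δ cell signals were mostly too scarce to measure. Of 27 receptor genes listed, 1 reached 100 UMIs over both libraries, the long-chain fatty acid receptor Ffar4. Over all δ barcodes, insulin-high ones included, Ffar4 had 55 WT and 45 HFD UMIs, or 73.2 and 73.1 CPM. It was at 22.3 and 29.3 CPM in α, 56.0 and 40.4 CPM in γ and 0.676 and 0.372 CPM in β comparators. Ghsr, the ghrelin receptor, had 8 UMIs in WT and 7 in HFD δ barcodes and 0 in α and γ comparators and endothelial barcodes. The γ comparators held 267758 (WT) and 173287 (HFD) UMIs in all, against 751703 and 615664 in δ barcodes. Little can therefore be read from 0 Ghsr UMIs in γ. Crhr2, the receptor for urocortin 3, had 2 and 5 UMIs. At least 1 Ghsr UMI was found in 10.9% of WT and 4.44% of HFD δ barcodes, against 0.421% and 0.0481% of the deeper β barcodes, which had medians of 29980 and 12307.5 UMIs. With each barcode thinned to 5000 UMIs it was detected in 3 of 60 WT and 2 of 33 HFD δ barcodes, against 1 of 1806 and 0 of 6046 β barcodes. Taken as 3 counts of the total, 0 of 6046 allows a share of up to 0.0496% of β barcodes with a UMI at that depth, which is no limit on cells expressing the gene.

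Among somatostatin receptors in δ barcodes, Sstr3 had 43 WT and 25 HFD UMIs, and Sstr2, the receptor of α cells, 1 and 2. Sstr3 was at 55.5 and 44.0 CPM in insulin-low δ, 42.4 and 40.4 in β, and 32.4 and 29.3 in α barcodes. Given the insulin share of β UMIs, the Sstr3 values give no order of δ and β. Ptprz1, a receptor-type phosphatase of neural cells named after its values were seen, had 42 and 46 UMIs and 0 UMIs in endothelial barcodes, and 77.6 and 113 CPM in insulin-low δ barcodes against at most 1.33 CPM in α, γ and β. Of 12 proliferation genes, 0 reached 100 UMIs.

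The HFD to WT ratio was then taken for each of 1499 genes with at least 100 UMIs over the δ barcodes of both libraries. At least 1.5-fold higher in HFD were 59 genes (3.94%), and at least 1.5-fold lower were 55 (3.67%). The median log2 ratio was 0.01, with quartiles at -0.18 and 0.19. Counting intervals lay wholly above 0 for 164 genes and wholly below 0 for 120. These counts compare 2 libraries, and the depth of δ barcodes differed between them, as did the shares of insulin-high barcodes (29.7% in WT and 21.5% in HFD) and the acinar level.

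The 10 genes ranked highest toward HFD were all genes of digestive enzymes or of their zymogen granules: Try5, Try4, Ctrl, Pnlip, Ctrb1, Cpa1, Cela2a, Cel, Sycn and Cpb1. Much of their HFD count lay in the acinar-rich barcode. Ctrb1, chymotrypsinogen, had 120 UMIs in WT and 1546 in HFD with it, and 241 in HFD without it. Try5, a trypsinogen whose reads can be shared with its close copies, had 15 in WT and 589 in HFD, and 169 in HFD without that barcode. Without that barcode 1485 genes reached 100 UMIs, of which 52 were at least 1.5-fold higher and 53 at least 1.5-fold lower, and 49 of the 52 were also among the 59.

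Among genes of other function, ranked again without the acinar-rich barcode after seeing the data, Krt8 and Herpud1 were higher in HFD. Krt8, keratin 8 of simple epithelia, had 806 CPM (606 UMIs, WT) and 1272 CPM (770 UMIs, HFD), a log2 ratio of 0.66 (95% counting interval 0.50 to 0.81). Its ratio was 0.68 over all α and 0.40 over all β barcodes. Herpud1, an ER-associated degradation factor induced by ER stress, was at 359 CPM (WT) and 586 CPM (HFD), a log2 ratio of 0.71 (0.47 to 0.94), with 0.56 in α and 1.23 in β barcodes. Both were thus higher in HFD in the 3 endocrine classes named.

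Capsl, a calcium-binding protein gene, had 79 WT and 122 HFD UMIs with a log2 ratio of 0.94 (0.52 to 1.37), against 0.12 in α and 0.76 in β barcodes. Klf7, a Krüppel-like factor, was at 0.96 (0.48 to 1.45), and S100a10, an annexin partner, at 0.67 (0.39 to 0.96) from 186 and 239 UMIs. S100a10 had -0.41 in α and 0.05 in β barcodes. Differences between classes were not tested.

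Toward lower levels in HFD the 10 ranked genes were Fos, Egr1, Txnip, Irs2, Nr4a1, Chga, Dusp1, Btg2, Rgs2 and Gm42418. Fos, the AP-1 subunit induced within minutes of stimulation, had 1564 CPM (1176 UMIs, WT) and 406 CPM (250 UMIs, HFD), a log2 ratio of -1.95 (-2.15 to -1.75). With barcodes thinned to 2000 UMIs, which left out 3 WT and 9 HFD δ barcodes, Fos was detected in 41 of 61 WT δ barcodes (67.2%, 54.0% to 78.7%) and 44 of 126 HFD ones (34.9%, 26.6% to 43.9%). Thinning to 5000 UMIs gave 49 of 60 (81.7%) and 18 of 33 (54.5%), but left out 102 HFD barcodes, and 26 of the 33 kept were insulin-high against 18 of 60 in WT. Unthinned shares were 82.8% and 48.9%.

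In the ratios given next, insulin-low barcodes exclude the acinar-rich one. Txnip, the glucose-induced thioredoxin inhibitor, had 170 UMIs in WT and 53 in HFD, a log2 ratio of -1.39, or -0.82 (-1.59 to -0.08) in insulin-low barcodes. Irs2, the insulin receptor substrate, had 115 and 38 UMIs, and -1.32 (-2.21 to -0.49) in insulin-low barcodes. Rgs2, a regulator of G protein signaling, had 144 and 58 UMIs, and -1.16 (-1.75 to -0.60). Txnip, Irs2 and Rgs2 were thus lower in the HFD library with and without the insulin-high barcodes. They were lower over all α and β barcodes too: Txnip was at -1.15 and -0.59, Irs2 at -1.84 and -0.97, and Rgs2 at -0.69 and -0.27. In γ barcodes Rgs2 was at -0.79 (-1.45 to -0.18), Txnip at 0.36 (-0.17 to 0.88) and Irs2 at -0.28 (-1.08 to 0.47). In endothelial barcodes Txnip was at -1.57 (-1.99 to -1.18), Irs2 at -0.14 (-1.10 to 0.75) and Rgs2 at 0.06 (-0.47 to 0.58). The intervals of Txnip and Irs2 in γ and of Irs2 and Rgs2 in endothelial barcodes cover 0.

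Chga did not keep its direction. Over all δ barcodes it was at 6682 CPM (WT) and 4127 CPM (HFD), a log2 ratio of -0.70 (-0.76 to -0.63). In the insulin-low barcodes without the acinar-rich one it was at 3119 and 3425 CPM, a ratio of 0.13 (0.01 to 0.26). The insulin-high barcodes held 3898 of 5023 Chga UMIs in WT and 1448 of 2541 in HFD.

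The AP-1 and immediate early list was the lowest of the gene lists examined. Of 16 genes 13 reached 100 UMIs, 7 of them were at least 1.5-fold lower in HFD (3.67% of all genes) and 0 higher, and their median log2 ratio was -0.67 beside 0.01 over all genes. Intervals lay below 0 for 12 of the 13, beside 120 of 1499 over all genes. Egr1, an immediate early zinc finger factor, had 623 UMIs in WT and 222 in HFD, a log2 ratio of -1.20 (-1.43 to -0.98), and Btg2, an antiproliferative early gene, had 615 and 287, or -0.81 (-1.02 to -0.61).

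Junb, an inducible Jun family subunit of AP-1, had 450 WT and 275 HFD UMIs, a log2 ratio of -0.42 (-0.64 to -0.20), short of the 1.5-fold limit. Dusp1, a phosphatase of MAP kinases, had 77 and 26 UMIs, a ratio of -1.28 (-1.98 to -0.62). Jund, the least inducible Jun family member, was the exception with 2086 CPM (WT) and 2383 CPM (HFD), a ratio of 0.19 (0.09 to 0.30). The list median stayed below 0 in δ barcodes of at most 15000 UMIs, at -0.98, and in those of 10000 to 40000 UMIs, at -1.07.

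The median of the same list was also below 0 in the other cell types, at -1.31 in α (12 genes), -0.35 in γ (8 genes), -0.999 in β (16 genes) and -0.99 in endothelial barcodes (16 genes). Not all members were lower: intervals lay above 0 for 0 α, 2 γ, 3 β and 4 endothelial genes, and below 0 for 12, 4, 12 and 11. Dusp1 was at 0.33 (0.20 to 0.46) in endothelial barcodes. Each value comes from the same 2 libraries and is no independent support. Fos was at -2.75 in α, -2.33 in β and -2.40 in endothelial barcodes.

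**Figure D4:**
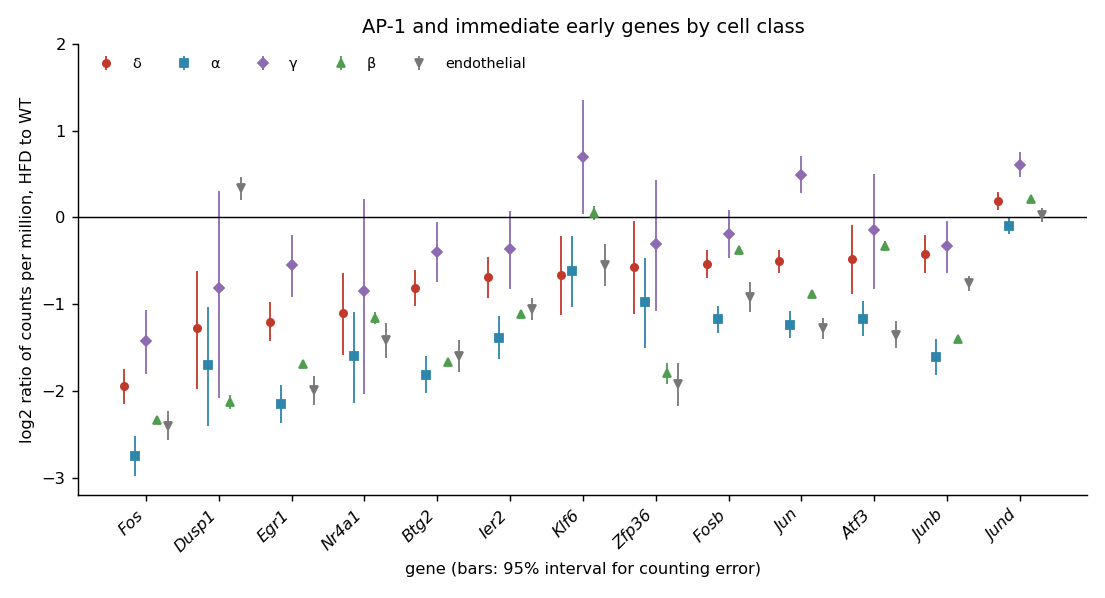
Log2 ratio of CPM, HFD to WT (vertical), for the 13 AP-1 and immediate early genes with at least 100 UMIs in δ barcodes (horizontal), in δ, α, γ, β and endothelial barcodes, with 95% intervals for counting error. Fos lies below 0 in all 5 classes, and Jund is above 0 in δ barcodes.

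Mitochondrially encoded respiratory genes were lower in HFD δ barcodes as a list, and nuclear ones were not. Of 13 mt- genes 11 were measured, with a median log2 ratio of -0.42 and none past 1.5-fold. Intervals lay below 0 for 9 of them, beside 120 of all 1499 genes. mt-Atp6, a subunit of ATP synthase, went from 10871 to 7566 CPM, a ratio of -0.52 (-0.58 to -0.47). In insulin-low barcodes it was at -0.67 (-0.74 to -0.60). The mt- list was not lower in δ barcodes alone: its median was -0.37 in α, -0.11 in γ and -0.16 in β barcodes, and 0.03 in endothelial ones.

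The 21 nuclear respiratory genes had a median of 0.10, with 4 intervals above 0 and 0 below, beside 164 and 120 of all 1499 genes. Uqcr10, of complex III, was the highest at 0.58 (0.21 to 0.96), from 111 WT and 136 HFD UMIs. Barcodes were admitted by their mt- share, and with at most 10% mt- UMIs the median of the mt- list was -0.13, whereas it was -0.72 with insulin under 10%.

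ER folding and stress genes had a median log2 ratio of 0.17 over 18 genes. Of these, 1 was past 1.5-fold higher, Herpud1, beside 3.94% of all genes. Intervals lay above 0 for 5 and below 0 for 1, beside 164 and 120 of all 1499 genes. Hsp90b1, the ER chaperone GRP94, had 597 WT and 553 HFD UMIs, a ratio of 0.18 (0.01 to 0.35), and Sdf2l1, a chaperone cofactor, was at 0.44 (-0.04 to 0.92), an interval that covers 0. Toward lower levels, Xbp1, the unfolded protein response factor, was at -0.35 (-0.69 to -0.02), and Pdia4, a disulfide isomerase, at -0.36 (-0.91 to 0.19). The same list had a median of 0.21 in α and 0.39 in β barcodes.

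Endocrine transcription factors and exocytosis genes had medians below 0. Of 6 measured factors 2 were past 1.5-fold lower, Insm1 and Pdx1, and the list median was -0.33, beside 3.67% of all genes and their median of 0.01. Insm1, a zinc finger factor of endocrine differentiation, had 142 UMIs in WT and 62 in HFD, a log2 ratio of -0.91 (-1.36 to -0.47), and -0.98 (-1.65 to -0.34) in insulin-low barcodes. Pdx1 was at -0.63 (-1.19 to -0.07), and at -0.22 (-0.98 to 0.53) in insulin-low barcodes, where the interval covers 0. The factor list also had medians below 0 in α (-0.47), γ (-0.26) and β (-0.39) barcodes.

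Of 9 measured exocytosis genes 3 were past 1.5-fold lower, Snap25 and Syt7 among them, with a list median of -0.39, beside the same 3.67% and 0.01 over all genes. Snap25, a SNARE protein of granule fusion, had 117 and 59 UMIs, a ratio of -0.70 (-1.18 to -0.24), and -0.92 (-1.64 to -0.24) in insulin-low barcodes. Syt7, a calcium sensor named after its value was seen, was at -0.59 (-1.09 to -0.11), or -0.42 (-1.15 to 0.29) in insulin-low barcodes. Syt13 was the most abundant at -0.09 (-0.43 to 0.24). Vamp2, the vesicle SNARE, was at 0.07 (-0.41 to 0.56), an interval that covers 0. The exocytosis list had medians of -0.43 in α, 0.05 in γ and -0.08 in β barcodes.

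Processing and granule genes were near the median of all genes. Of 14 listed 11 were measured, with a median of -0.10 and only Chga past 1.5-fold, beside 3.67% of all genes past it toward lower. Chgb, chromogranin B, named after its values were seen, was at 2659 CPM (WT) and 2592 CPM (HFD), and in insulin-low barcodes at 2739 and 3258 CPM against 553 and 463 CPM in α, 993 and 629 CPM in γ and 494 and 562 CPM in β comparators. Pcsk2, the prohormone convertase, was at 1912 and 1602 CPM, a ratio of -0.26 (-0.37 to -0.14), and Cpe, the carboxypeptidase that trims peptides, at 929 and 1117 CPM, a ratio of 0.27 (0.11 to 0.42). Scg2, secretogranin II, was at 0.22 (0.13 to 0.32) from 1835 WT and 1756 HFD UMIs.

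Over all δ barcodes none of the 6 δ marker genes was past 1.5-fold and their median log2 ratio was 0.19, but this median turned with depth. It was -0.41 among barcodes of at most 15000 UMIs, -0.47 among those of 2500 to 15000, and -0.73, past 1.5-fold lower, among those of 10000 to 40000, where 3 of the 6 were measured. No direction can therefore be given for the list, which includes Sst. Rbp4 went from 3640 to 4231 CPM, a log2 ratio of 0.22 (0.14 to 0.30), Ly6h was at 0.25 (-0.08 to 0.58) and Gap43 at 0.36 (-0.12 to 0.85). Hhex, with 135 UMIs in WT and 99 in HFD, was at -0.16 (-0.55 to 0.23) over all δ barcodes and at -0.53 (-0.99 to -0.07) in insulin-low barcodes. Arg1 was at -0.17 (-0.46 to 0.12). Detection of Hhex after thinning to 2000 UMIs was 21 of 61 WT barcodes (34.4%, 22.7% to 47.7%) and 37 of 126 HFD ones (29.4%, 21.6% to 38.1%), with overlapping intervals. After thinning to 5000 UMIs, where 26 of the 33 HFD barcodes kept were insulin-high, it was 35 of 60 (58.3%) and 16 of 33 (48.5%), and without thinning 48 of 64 and 62 of 135.

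Sst, which chose the barcodes, is given as a description. It summed to 101114 CPM (WT) and 113750 CPM (HFD), a log2 ratio of 0.17, but its direction turned with the depth of the barcodes, to -0.48 among barcodes of at most 15000 UMIs and -0.73 among those of 10000 to 40000 UMIs. Rbp4 turned as well under these limits, to -0.34 and -0.12. No direction can therefore be given for Sst or Rbp4. In the last window 25 WT and 12 HFD δ barcodes remained.

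**Figure D5:**
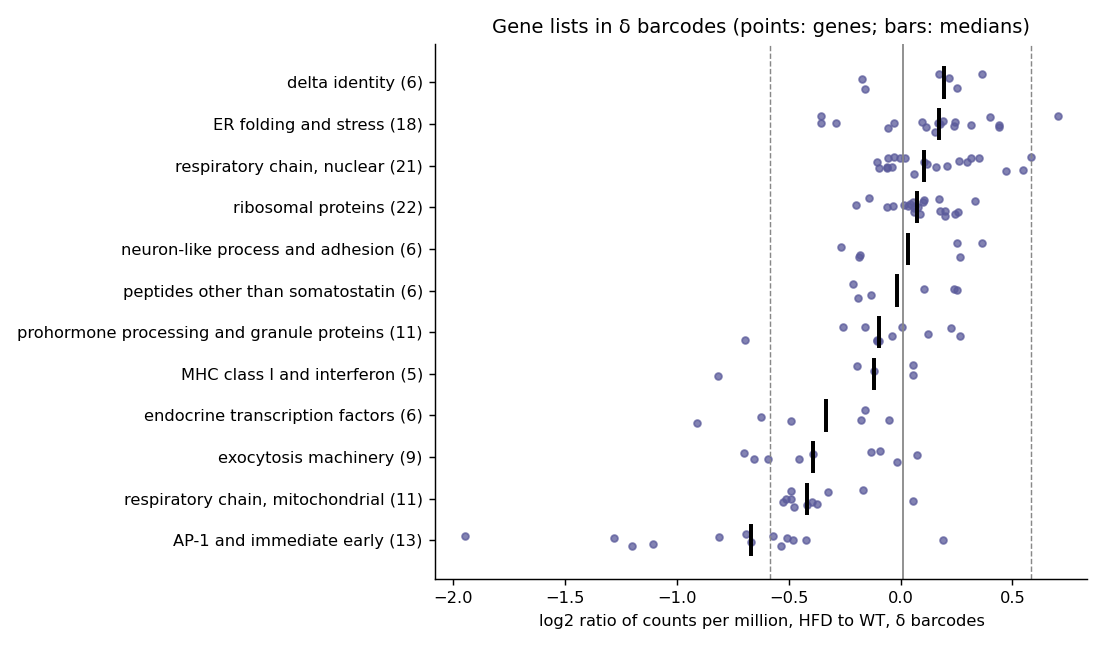
Log2 ratio of CPM, HFD to WT, in δ barcodes (horizontal) for the measured genes of 12 gene lists (rows, number of genes in parentheses), points for genes and bars for list medians, with a solid line at the median of all genes and dashed lines at 1.5-fold. The AP-1 list has the lowest median, -0.67, and the δ identity list, which includes Sst, is at 0.19 over all δ barcodes but at -0.41 among those of at most 15000 UMIs.

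Genes of antigen presentation, ribosomes and neurite-like processes were close to the median of all genes. Of 18 MHC class I and interferon genes 5 were measured, with a median of -0.12, and 1 was past 1.5-fold lower, beside 3.67% of all genes. It was Tapbp, the peptide-loading chaperone tapasin, at -0.81 (-1.39 to -0.26), or -0.49 (-1.24 to 0.24) in insulin-low barcodes. The 22 ribosomal protein genes had a median of 0.07, with 0 past 1.5-fold. Their intervals lay above 0 for 7 and below 0 for 1, beside 164 and 120 of all 1499 genes. The ribosomal list had medians of 0.31 in α, 0.25 in γ, 0.30 in β and 0.03 in endothelial barcodes. The 6 measured neuron-like genes had a median of 0.04 in δ barcodes. Abcc8, the sulfonylurea receptor of the KATP channel, was at 484 CPM (WT) and 435 CPM (HFD), a ratio of -0.15 (-0.39 to 0.08). Ttr, the thyroid hormone and retinol carrier, had 452 WT and 367 HFD UMIs, a ratio of -0.01 (-0.22 to 0.19), but 280 and 46 UMIs in insulin-low barcodes, a ratio of -2.42 (-2.91 to -1.97). Ttr is also 1 of the 8 α markers, which summed to 1792 CPM (WT) and 1709 CPM (HFD) over all δ barcodes. Per δ barcode these markers had medians of 3.29 and 4.91 per 10000 UMIs and highest values of 478 and 565. Whether a few α-like barcodes held the Ttr UMIs was not tested, and the interval does not cover it. Odc1, the first enzyme of polyamine synthesis, had 59 and 82 UMIs, a ratio of 0.76 (0.26 to 1.27).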

How the data were processed

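Islet cells of each group were captured as 1 library with 10x Genomics 3′ chemistry, and per the labels the authors processed reads with Cell Ranger 3.0.2 and mm10. The deposited matrices hold raw UMI counts per gene and barcode, with no normalization. They held 3895 WT and 8951 HFD barcodes with 73843674 and 94375138 UMIs. The maximum library size in the study's methods was not applied, since the rule that chose the barcodes has none.

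Barcodes were classed on hormone shares as stated, and UMIs were summed per class and library and divided by the class total (CPM). With 1 library per group no test was made. Intervals are exact at 95% (Poisson, Clopper-Pearson, conditional binomial for ratios) and assume independent molecules. The simulated counts on which they were checked make the same assumption, so that check could not show clumping of molecules within barcodes. A fold call needed 100 UMIs over both libraries. Named genes were the δ markers, the genes higher in δ by at least 4-fold (at most 20), the 10 per direction with 100 UMIs ranked by the interval bound nearest to a ratio of 1, receptors, peptides and transcription factors, and per gene list the 2 highest, the 2 lowest and the most abundant. The members, gene lists and comparisons were chosen with earlier results of these data known. Reads could split between near-identical copies such as the trypsinogens. Doublet scores came from Scrublet in scanpy 1.11.5, and numpy 2.4.6, scipy 1.17.1 and pandas 2.3.3 did the rest. Promoter letters came from RefSeq on GRCm38.p6 and gene positions from GENCODE on GRCm38. Alternatives were other limits on insulin, depth, Sst, genes, mt- share and gene counts, other scalings, removal of doublet scores, and, added after seeing the data, limits on acinar markers, a depth window of 2500 to 15000 UMIs, and comparators with little Sst. Results for some genes are not reported here.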

Additional observations from a re-analysis of the deposited data

Results flagged for a closer look

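Several genes had an HFD to WT log2 ratio in δ barcodes of opposite sign to that in β or α barcodes, with counting intervals on both sides clear of 0. The difference between classes was not tested, and Sst, Ins1, Ppy and Pyy also chose the barcodes. Sst was at 0.17 in δ, -0.65 in β and -0.50 in α barcodes, and Rbp4 at 0.22, -0.53 and -0.19. Both turned below 0 in δ barcodes under depth limits. In α barcodes with under 1% Sst and under 10% insulin, comparators chosen after seeing the data, Rbp4 was at -0.07 (-0.23 to 0.09). That interval covers 0, so no sign can be given for Rbp4 there. Sst was at 1.91 (1.21 to 2.67), but the limit on Sst chose these barcodes, so the value cannot bear on its sign in α. In β barcodes with under 1% Sst, Rbp4 was at -0.57 and Sst, limited there too, at -0.47. Ins1 was at 0.11 in δ, -0.13 in β and -0.32 in α barcodes. In the α comparators it was at 1.23 (1.10 to 1.36), but the limit on insulin chose them, so this value cannot bear on its sign either. Ppy was at -0.19 in δ and 0.46 in α barcodes, and Pyy at 0.25 in δ and -0.47 in β barcodes. Pcsk2 was at -0.26 in δ and 0.12 in β barcodes. Resp18, an endocrine granule protein, was at 0.12 in δ and -0.18 in α barcodes. Jund was at 0.19 in δ and -0.10 in α barcodes. Rps6, a ribosomal protein gene, was at -0.20 in δ, 0.13 in β and 0.28 in α barcodes. In the α comparators Ppy was at 0.70, Resp18 at -0.29, Jund at -0.16 and Rps6 at 0.31. In the β comparators Pyy was at -0.36, Pcsk2 at 0.12 and Rps6 at 0.13. Each of these kept the sign given above for its class.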

How the results depend on the processing

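No paired analysis was possible because each group was 1 library, and for the same reason no replicate could be left out. Depth, insulin and acinar content of the barcodes limit what these ratios can show. With insulin under 10%, the δ share of endocrine barcodes was 2.23% in WT and 1.61% in HFD, the log2 ratio of Sst was 0.035 and that of Chga 0.094, the processing list had a median of 0.040, and 38 genes were past 1.5-fold higher. With at most 15000 UMIs the shares were 13.4% and 3.03%, Sst was at -0.48, Chga at 0.33 and Rbp4 at -0.34, and the δ identity and AP-1 medians were -0.41 and -0.98. With 10000 to 40000 UMIs the shares were 2.02% and 0.288%, 0 genes were 4-fold higher in δ, Sst was at -0.73 and Rbp4 at -0.12, 34 genes were past 1.5-fold higher, and the medians were -0.73 for δ identity, -0.30 for processing and -1.07 for AP-1. With at least 5% Sst, Sst was at -0.038 and the processing median at 0.043. Sst was at 0.21 without the highest doublet scores, 0.11 with at least 1000 genes, 0.20 with at most 10% mt- UMIs, and 0.15 scaled to totals without hormones and mt- genes. At a minimum of 50 UMIs per gene 146 genes were higher and 216 lower, and at 300 UMIs 16 and 7, with fewer genes measured. The cause of the other shifts was not tested.

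Among alternatives chosen after seeing the data, acinar markers under 1% put Sst at 0.18. With insulin under 10% as well, Sst was at 0.069, Chga at 0.13 and the processing median at 0.080, with 32 genes higher and 35 lower. With 2500 to 15000 UMIs, Sst was at -0.56, Chga at 0.37 and Rbp4 at -0.39, the δ identity and AP-1 medians were -0.47 and -1.13, and 88 genes were lower. With little insulin and Sst in the comparators, 13 genes were 4-fold higher in δ. For the marker and ranked genes recomputed under each alternative, Sst aside, 206 recomputed log2 ratios stayed within the interval first given, 86 moved out of it and 7 turned direction.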
